A study of Rattus norvegicus with 6 samples.

Results

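The matrix metalloproteinases (MMPs) and tissue inhibitors of metalloproteinases (TIMPs) were followed in rat sciatic nerve after a crush injury. Of the 30957 genes in the mRNA table, 10 were chosen by name: Mmp2, Mmp3, Mmp7, Mmp9, Mmp12, Mmp14, Mmp19, Timp1, Timp2 and Timp3. Each was found once. The sequencing compared 3 groups of 2 Sprague-Dawley rats at 1 month of age, which the study drew at random from larger groups. These were a control group, a group taken 4 days after the crush (D4 group) and a group taken 7 days after it (D7 group). In the D4 and D7 groups the middle of the left sciatic nerve was clamped with hemostatic forceps and released. The sample labels call the control nerves normal, while the methods describe an operation without the clamp. The 2 libraries of a group came from 1 rat each and carry the letters a and b, which do not link rats of different groups.

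MMPs are zinc-dependent endopeptidases that cut collagens, laminins, elastin and other proteins of the extracellular matrix, and most are made as latent enzymes that become active when a propeptide is removed. TIMPs are small secreted proteins that bind the active site of MMPs and block it. In peripheral nerve both families are known for remodeling the basal lamina and the blood-nerve barrier after injury, when macrophages enter, myelin is cleared and axons regrow. The libraries measured mRNA, so the amount of latent or active enzyme was not observed.

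The libraries held between 18727255 and 25350886 fragments on mRNAs, and 15195 genes had enough counts to be tested. Levels are given as CPM, fragment counts relative to the size of the library, after scaling by the trimmed mean of M values (TMM). A differentially expressed gene (DEG) had an adjusted p-value under 0.05 and a change of at least 2-fold in edgeR's quasi-likelihood test. The Schwann cell markers of nerve were present in every library, with a summed level of 59104 to 86054 CPM in the control, 5760 to 6403 CPM in the D4 and 12089 to 18208 CPM in the D7 group. Of these 7 markers, 4 were lower and 1 was higher on D4, and 3 were lower and 1 was higher on D7. Of the 8 macrophage markers, 8 were upregulated on D4 and 7 on D7, and their summed level was 321 and 352 CPM in the control, 1092 and 1107 CPM in the D4 and 685 and 835 CPM in the D7 group. Without D7 b the number on D7 was 4, and without control b it was 5. The summed levels of 5 skeletal muscle markers (4.27 to 85.5 CPM) and of 5 adipocyte markers (7.09 to 1315 CPM) varied widely between libraries of the same group, with D4 a highest in the first and D7 a lowest in the second. Of the 7 fibroblast markers 0 were DEGs on D4 and 1 was lower on D7, and of the 5 endothelial and mural markers found 2 were lower on D4 and 4 on D7. Fewer cells of a type and less RNA per cell cannot be told apart in bulk nerve.

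Among the 9 MMP and TIMP genes that could be tested, 4 were upregulated and 0 were downregulated in the control vs D4 group, where 11.2% of all tested genes were upregulated and 10.7% were downregulated. In the control vs D7 group 4 of the 9 were also upregulated and 0 were downregulated, beside 9.83% and 9.02% of all tested genes. Mmp9, Mmp12, Mmp19 and Timp1 were the DEGs in each comparison. Both comparisons used the same 2 control libraries. Mmp7, Mmp9 and Mmp12 had 0 to 4 counts in each control library and were tested only because of the injured libraries. They could therefore be called only as higher. With at least 10 counts required in every library, 2 of 6 members were upregulated on each day. In that setting 1473 of 13411 genes were upregulated on D4 and 1225 on D7. The members were chosen with earlier results of these data known. The median log2 fold change of the 9 genes was 1.72 on D4 and 1.40 on D7, while that of all tested genes was -0.04 and 0.01. Both medians are the value of Timp1. They are lifted by Mmp7, Mmp9 and Mmp12, which lie above Timp1 on both days and could be called only as higher. The other 6 members had log2 fold changes of -0.39, -0.18, 0.20, 0.74, 1.72 and 2.55 on D4. On D7 the values of these 6 were -0.47, -0.12, 0.01, 0.75, 1.40 and 1.71. With the adjusted p-value alone, 5 of the 9 were higher and 1 was lower on each day, while 21.6% of all tested genes were higher and 22.6% lower on D4, and 19.5% and 18.1% on D7. The genes added were Mmp2 on both days, Timp2 (lower) on D4 and Timp3 (lower) on D7. The libraries of the injured and control groups did not overlap for 8 of the 9 genes on each day, but this was so for 76.2% of all tested genes on D4 and 71.9% on D7.

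**Figure D1:**
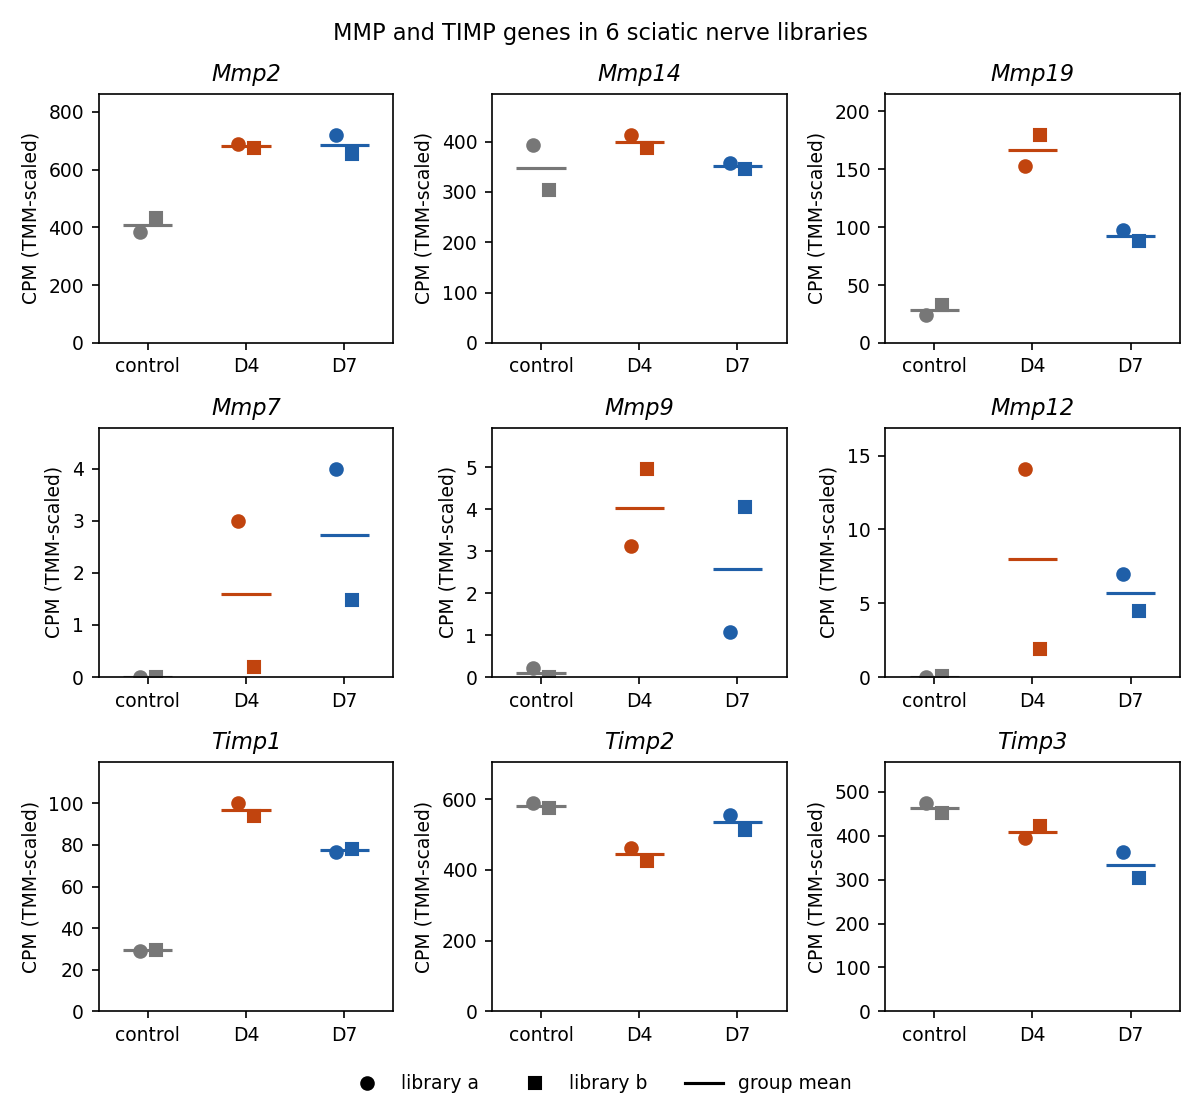
Level of 9 MMP and TIMP genes in each of the 6 libraries, in TMM-scaled CPM, with each y axis starting at 0 and a horizontal line at the mean of the 2 libraries. Mmp19 and Timp1 were highest in both D4 libraries and intermediate in both D7 libraries, while Mmp7, Mmp9 and Mmp12 had 0 to 4 counts in control and differed widely within the D4 or D7 group.

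**Figure D2:**
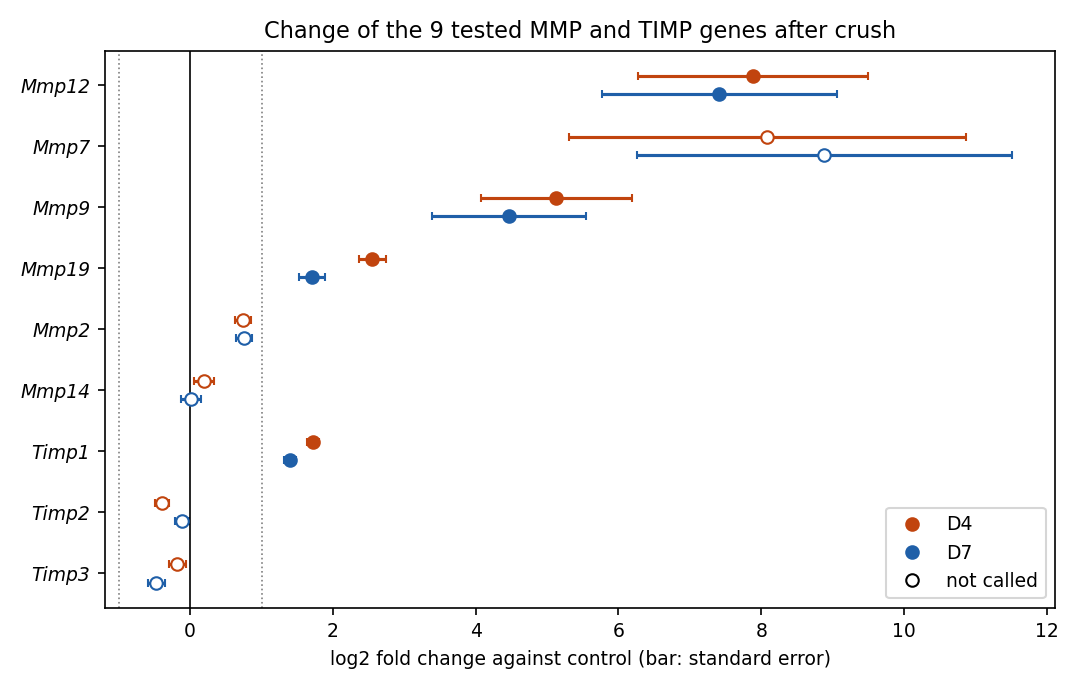
Log2 fold change against control on D4 (red) and D7 (blue) from the fit of all 6 libraries, with bars of 1 standard error, filled points for DEGs and dotted lines at 2-fold. Mmp19 and Timp1 lay beyond 2-fold with short bars, Mmp2, Mmp14, Timp2 and Timp3 lay within it, and the points of Mmp7, Mmp9 and Mmp12 had wide bars and depend on the prior count that the fit adds to control values near 0.

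Mmp2 and Mmp9 are the gelatinases, which cut denatured collagen and the type IV collagen of basal laminae. Mmp2 (ENSRNOG00000016695, Rnor_6.0 chr19:15542765-15570611) was abundant in every nerve, with 384 and 431 CPM in control a and b, 690 and 674 CPM in D4 a and b, and 720 and 654 CPM in D7 a and b. All 4 injured libraries were above both controls. The log2 fold change was 0.74 (SE 0.11, adjusted p = 0.00279) on D4 and 0.75 (SE 0.11, adjusted p = 0.00353) on D7. Both changes, 1.67-fold and 1.68-fold, were under 2-fold, so Mmp2 was not a DEG. Without the TMM factors the log2 fold changes were 1.03 and 1.04, over the 2-fold line. The D4 and D7 libraries of Mmp2 overlapped, with a log2 difference of 0.01 (SE 0.11, adjusted p = 0.965).

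Mmp9 (ENSRNOG00000017539, chr3:161413298-161421520) was close to absent from the control nerve, with 4 counts in control a and 0 in control b. It had 76 and 134 counts in D4 a and b and 23 and 82 counts in D7 a and b, which correspond to 3.12, 4.95, 1.08 and 4.06 CPM. The 2 D7 libraries differed 3.76-fold and enclosed D4 a. Over the pooled counts of each group, Mmp9 was 36.7 times as high on D4 as in control (95% interval of the counts 14.1 to 136) and 22.8 times as high on D7 (8.63 to 85.1). These intervals cover counting error alone, and D7 a by itself was 9.72 times and D7 b 36.5 times as high as the pooled controls. In the fit, the adjusted p-value was 0.0104 on D4 and 0.0215 on D7. It was 0.0523 on D4 without D4 b, and 0.0719 and 0.0616 on D7 without control b and without D7 b, so the call in each comparison needed those libraries. Per length, Mmp2 was at 229.7 to 249 FPKM in the injured libraries and Mmp9 at 0.296 to 1.36 FPKM, so that the constitutive gelatinase stayed far above the one detected after injury.

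Mmp14 encodes a membrane-anchored MMP that activates latent MMP-2 on the cell surface, in a complex in which TIMP-2 acts as the bridge. Mmp14 (ENSRNOG00000010947, chr15:33074441-33083655) had 393 and 303 CPM in the control, 413 and 387 CPM in the D4 and 357 and 345 CPM in the D7 group. The D4 and the D7 libraries each overlapped the control range. The log2 fold change was 0.20 (SE 0.14, adjusted p = 0.284) on D4 and 0.01 (SE 0.14, adjusted p = 0.954) on D7, and it was -0.17 on D7 without control b. The D4 value passed an adjusted p of 0.05 without the TMM factors (log2 fold change 0.49, adjusted p = 0.0238) and without control a (0.40, adjusted p = 0.0385), at less than 2-fold. The 2 control libraries were further apart than the means of the 3 groups.

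Mmp19 encodes an MMP that cuts basal lamina proteins such as laminin and nidogen. Mmp19 (ENSRNOG00000006778, chr7:3216497-3224201) had 23.7 and 33.1 CPM in the control, 153 and 179.6 CPM in the D4 and 97.8 and 87.7 CPM in the D7 group. The 3 groups did not overlap, and D4 was the highest. Mmp19 was upregulated 5.86-fold on D4 (log2 fold change 2.55, SE 0.19, adjusted p = 0.000278) and 3.27-fold on D7 (log2 fold change 1.71, SE 0.18, adjusted p = 0.00129). It was the most abundant of the upregulated MMPs, and it was a DEG on both days when any 1 of the 6 libraries was left out, with log2 fold changes of 2.33 to 2.81 on D4 and 1.49 to 1.97 on D7. From D4 to D7 the log2 difference was -0.84 (SE 0.18), with an adjusted p-value of 0.0551. Over 12 alternative settings this p-value was under 0.05 in 6, from 0.000265 with DESeq2 to 0.272 without D4 b, and the difference was under 2-fold in each. Its counts, 460 and 549 in control against 3730 and 4862 on D4, were large enough that counting error was small beside the difference between rats.

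The other MMP genes of the set, Mmp3, Mmp7 and Mmp12, lie in the MMP cluster of chromosome 8, where 10 MMP genes follow each other within 378 kb and no other row of the mRNA table falls inside. Mmp3 encodes stromelysin-1, Mmp7 matrilysin and Mmp12 the macrophage metalloelastase. Their promoter sequences are shown because the cluster members share short motifs close to the start but differed in whether their mRNA was found. RefSeq sequence on the GRCr8 build was matched for 6 of the 10 genes: Mmp3, Mmp7, Mmp12, Timp1, Timp2 and Timp3. The 250 bases before each start are printed 5′ to 3′ on the plus strand, at chr8:12925031-12925280 for Mmp3, chr8:13132793-13133042 for Mmp7 and chr8:12866402-12866651 for Mmp12. Capitals mark the AP-1 motif TGAGTCA, the PEA3 motif AGGAAG and the TATA-box motif TATAAA, with the PEA3 match of Mmp7 on the opposite strand and so shown as its complement CTTCCT.
Mmp3: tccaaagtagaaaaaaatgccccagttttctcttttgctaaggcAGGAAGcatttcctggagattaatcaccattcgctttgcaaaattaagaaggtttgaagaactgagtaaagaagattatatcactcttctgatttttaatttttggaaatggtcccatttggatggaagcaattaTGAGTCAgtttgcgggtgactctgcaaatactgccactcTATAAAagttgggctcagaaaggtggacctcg
Mmp7: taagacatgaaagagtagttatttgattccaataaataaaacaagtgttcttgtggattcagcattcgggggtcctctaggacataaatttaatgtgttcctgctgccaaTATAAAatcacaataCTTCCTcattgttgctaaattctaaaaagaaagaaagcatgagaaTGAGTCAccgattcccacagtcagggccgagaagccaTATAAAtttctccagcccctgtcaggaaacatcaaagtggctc
Mmp12: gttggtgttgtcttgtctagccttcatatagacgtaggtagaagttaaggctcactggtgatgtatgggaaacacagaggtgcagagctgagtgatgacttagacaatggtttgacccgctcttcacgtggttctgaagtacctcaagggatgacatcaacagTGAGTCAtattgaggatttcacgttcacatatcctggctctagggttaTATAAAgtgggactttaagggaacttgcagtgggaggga

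The AP-1 motif was searched on both strands, with TGACTCA on the opposite strand, and was found in 4.05% of 33469 promoter windows of this length. It stood 71 to 65 bases before the start in Mmp3, 80 to 74 bases before it in Mmp7 and 87 to 81 bases before it in Mmp12. The TATA motif, in 12.9% of all windows, was found in the same 3 promoters, at 32 to 27, 43 to 38 and 39 to 34 bases before the start, with a further match in Mmp7 at 140 to 135 bases. The PEA3 motif was found in 29.5% of all windows, and among the 6 genes in Mmp3, Mmp7 and Timp1. No motif matches overlapped. The windows of Timp2 and Timp3 held none of the 3 letter strings, and their GC content was 72% and 69.6%, compared with 38.8% in Mmp3 and Mmp7, 45.6% in Mmp12 and 61.2% in Timp1. These matches describe letters in the sequence and do not show that a factor was bound.

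Mmp3 (ENSRNOG00000032626, Rnor_6.0 chr8:5676665-5698579) had 0 counts in all 6 libraries and was not tested. A count of 0 allows up to 3 counts, which is 0.111 to 0.181 CPM depending on the library. Its promoter carries all 3 motifs shown above, yet its mRNA was not detectable at this depth in control or injured nerve.

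Mmp12 (ENSRNOG00000030187, chr8:5606592-5616493) had 0 and 1 count in the control, 343 and 51 counts in the D4 and 149 and 90 counts in the D7 group. In CPM these were 0 and 0.06, then 14.1 and 1.88, then 7.00 and 4.45. All 4 injured libraries were above the controls, but D4 a was 7.47 times as high as D4 b, and both D7 libraries lay between them. Over the pooled counts the ratio to control was 276 on D4 (95% interval of the counts 49.2 to 10920) and 207 on D7 (36.8 to 8221). The adjusted p-value was 0.0101 on D4 and 0.0163 on D7. It was 0.0574 on D4 and 0.0820 on D7 without control a, and 0.0636 on D7 without control b. The intervals cover counting error alone. Against the pooled controls the ratio was 507 in D4 a and 67.8 in D4 b, and 252 and 160.3 in D7 a and b, so the size of the increase on D4 also depended on the rat.

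Mmp7 (ENSRNOG00000010507, chr8:5893249-5901049) had 0 counts in both controls, 73 and 5 counts in D4 a and b, and 85 and 30 counts in D7 a and b. Relative to a limit of 3 counts over the pooled control libraries, the observed level of Mmp7 was 18.2 times as high on D4 and 33.2 times on D7. These ratios allow for counting error in the control only. They take the injured counts as exact and leave out the difference between rats. Against the same limit, D4 b alone, with 5 counts, was 2.22 times as high. The level of D4 b (0.185 CPM) was close to the limit of control b taken by itself (0.181 CPM). D7 a and D7 b alone were 47.9 times and 17.8 times as high as the limit. D4 a was 16.2 times as high as D4 b after scaling, and the adjusted p-value of 0.0673 on D4 and 0.0507 on D7 did not pass. The call depended on the method: with DESeq2 the adjusted p-value was 0.000624 on D4 and 0.000169 on D7, and without the low-count filter it was 0.0464 and 0.0318. Library D4 b, which was low for Mmp7 and Mmp12, was not low for Mmp9 or Mmp19.

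The other 7 genes of the cluster divided in the same way between silent and detected. Mmp1, Mmp1b, Mmp10 and Mmp20 had 0 counts in all 6 libraries, which with Mmp3 makes 5 of the 10 cluster genes, and Mmp13 had at most 2 counts in any library. Mmp8, the collagenase stored in neutrophil granules, had 3 and 1 counts in control, 264 and 9 on D4 and 387 and 153 on D7. It was upregulated on D7 (adjusted p = 0.0345) and did not pass on D4 (adjusted p = 0.0594). The D7 call was lost without control a (adjusted p = 0.121), without control b (adjusted p = 0.128) and without D7 a (adjusted p = 0.0923). Mmp27 went the other way, with 34 and 128 counts in control, 6 and 7 on D4 and 0 and 23 on D7. It was downregulated on D4 (log2 fold change -4.19, SE 1.34, adjusted p = 0.0463), and the call was lost without control b (adjusted p = 0.201), without D4 a (adjusted p = 0.190), without D4 b (adjusted p = 0.192) and without the TMM factors (adjusted p = 0.0546). Mmp12, Mmp8 and Mmp7 shared the order of their libraries on D4, with D4 a far above D4 b, while Mmp27 was even there.

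**Figure D3:**
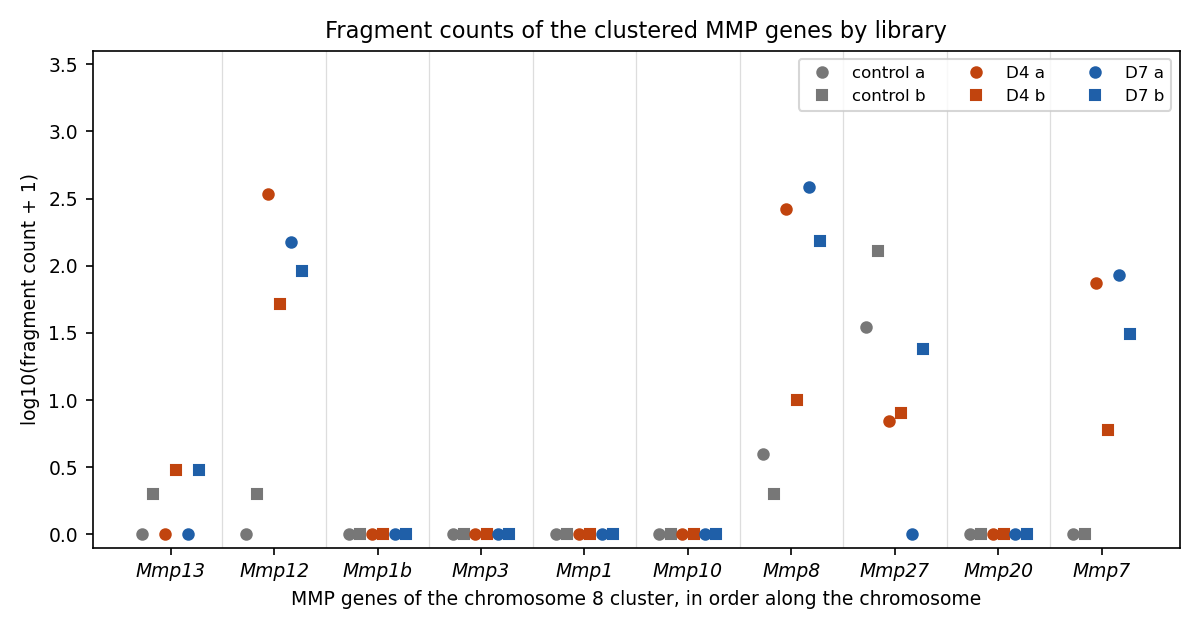
Fragment counts of the 10 MMP genes of the chromosome 8 cluster in each library, as log10 of the count plus 1, with the genes in their order on the chromosome. Mmp12, Mmp8 and Mmp7 were at 0 to 3 counts in control and higher in every injured library, Mmp27 was highest in control, 5 genes had no count, and Mmp13 reached 2 counts.

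Macrophage markers were higher in the injured nerves, whereas most neutrophil markers were not. Cd68, a lysosomal protein of macrophages, was at 13.4 and 10.1 CPM in the control, 107 and 71.7 CPM in the D4 and 84.2 and 86.4 CPM in the D7 group. Of the 7 neutrophil markers, Elane and Camp had 0 counts in every library and S100a8 and S100a9 were at 0.47 CPM or less. Csf3r, a receptor of myeloid cells, was upregulated on both days (log2 fold change 2.58 and 2.36), and Cxcr2, a chemokine receptor, was downregulated on D4 (log2 fold change -1.60, adjusted p = 0.0213). The neutrophil markers together were at 52.6 and 56.7 CPM in control and between 18.0 and 30.9 CPM after injury. This sum followed Mpo, its largest part in control, with 47.8 and 51.5 CPM there and at most 14.6 CPM after injury. Mpo was not a DEG (adjusted p = 0.106 on D4 and 0.128 on D7). Its D7 libraries had 1 and 295 counts. Csf3r moved the other way, so the lower sum does not describe the markers as a set. The part of these cells in the levels of Mmp7, Mmp8, Mmp9 and Mmp12 was not tested.

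Timp1, a secreted inhibitor of most MMPs, was upregulated with little spread between rats. Timp1 (ENSRNOG00000010208, chrX:1364786-1369384) had 29.2 and 29.6 CPM in the control, 99.9 and 93.8 CPM in the D4 and 76.8 and 78.0 CPM in the D7 group. No library of any group overlapped another group, and D4 was the highest, the same order of groups as for Mmp19. Timp1 was 3.29-fold higher on D4 (log2 fold change 1.72, SE 0.09, adjusted p = 0.000131) and 2.63-fold higher on D7 (log2 fold change 1.40, SE 0.09, adjusted p = 0.000373). Leaving out any 1 library gave log2 fold changes of 1.68 to 1.77 on D4 and 1.38 to 1.44 on D7, all of them DEGs. The log2 difference from D4 to D7 was -0.32 (SE 0.08, adjusted p = 0.0871) and did not pass, although its adjusted p-value was 0.0117 with DESeq2.

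Timp2 and Timp3, the inhibitors with the highest levels in control nerve, were not DEGs. Timp2 also takes part in the activation of MMP-2, and TIMP-3 is the member of the family that binds to the matrix and also inhibits ADAM proteases. Timp2 (ENSRNOG00000003148, chr10:107338465-107386072) had 588 and 575 CPM in the control, 463 and 424 CPM in the D4 and 556 and 514 CPM in the D7 group. The D4 libraries were the lowest, and the D7 libraries lay between them and the control. The log2 fold change of Timp2 was -0.39 (SE 0.10, adjusted p = 0.0217) on D4, and -0.12 (SE 0.10, adjusted p = 0.374) on D7, where it was 0.17 without the TMM factors. Timp3 (ENSRNOG00000004303, chr7:23544215-23594133) had 474 and 452 CPM in the control, 394 and 423 CPM in the D4 and 363 and 304 CPM in the D7 group. The order of its groups was control, D4, D7, from high to low. The log2 fold change of Timp3 was -0.47 (SE 0.12, adjusted p = 0.0234) on D7, and -0.18 (SE 0.12, adjusted p = 0.253) on D4, where it was 0.11 without the TMM factors. The D4 value of Timp2 and the D7 value of Timp3 also missed an adjusted p of 0.05 without these factors (-0.10, adjusted p = 0.407, and -0.18, adjusted p = 0.227), a setting in which the median log2 fold change of all genes was 0.25 on D4 and 0.31 on D7. Both genes were thus under 2-fold, and the direction of Timp2 on D7 and of Timp3 on D4 turned with the scaling.

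In the direct comparison of the D7 with the D4 group, 0 of the 9 genes were DEGs, beside 2.18% of all tested genes. At an unadjusted p-value under 0.05 there were 4 of the 9, beside 24.7% of all tested genes, and with DESeq2 there were 0 DEGs. The libraries did not overlap for 5 of the 9 genes (Mmp14, Mmp19, Timp1, Timp2 and Timp3), while this held for 60.6% of all tested genes. The median log2 difference was -0.29, against 0.01 for all genes.

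The levels of the members within a library were compared per length, in the deposited FPKM. In control the order from high to low was Timp2 (305 and 306 FPKM), Timp3 (229 to 234), Mmp14 (109.9 to 139), Mmp2 (108 to 124), Timp1 (34.1 to 35.4) and Mmp19 (10.2 to 14.6), with Mmp9, Mmp12, Mmp3 and Mmp7 under 0.05 FPKM. Mmp14 and Mmp2 overlapped there. On D4 the order was Timp2 (273 to 297 FPKM), Timp3 (240.2 to 259), Mmp2 (234 to 239), Mmp14 (169 to 181), Timp1 (135 to 144) and Mmp19 (81.4 to 95.7), and these 6 genes did not overlap with their neighbors. Mmp12, Mmp7 and Mmp9 followed at 0.177 to 8.38 FPKM and overlapped. On D7 Mmp2 (229.7 to 249 FPKM) stood above Timp3 (188 to 221 FPKM), while Timp2 remained the highest, at 334 to 356 FPKM.

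The 3 TIMPs together were above the 7 MMPs in every library, but by a smaller factor after injury. The ratio of summed TIMP to summed MMP FPKM was 2.23 and 2.29 in control a and b, 1.33 and 1.33 in the D4 and 1.48 and 1.46 in the D7 libraries. The 3 groups did not overlap, and the 2 libraries of a group differed by less than 0.07 in each case. No test was made on this ratio, which is over genes chosen by name and does not depend on the scaling between libraries. The MMP sum also changed in makeup: Mmp2 and Mmp14 made up 96.0% and 94.1% of it in control, 81.8% and 80.4% on D4 and 87.1% and 87.9% on D7. Mmp19 had a share of the MMP sum of 3.96% and 5.87% in control, 15.9% and 19.0% on D4 and 11.1% and 10.9% on D7. Among the TIMPs, the share of Timp1 was 5.94% and 6.21% in control, 21.1% and 20.3% on D4 and 16.1% and 17.9% on D7. Mmp15, a further membrane-type MMP outside these sums, was at 80.5 to 156 FPKM, a level like that of Mmp14, so a sum over all MMPs would give another ratio.

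**Figure D4:**
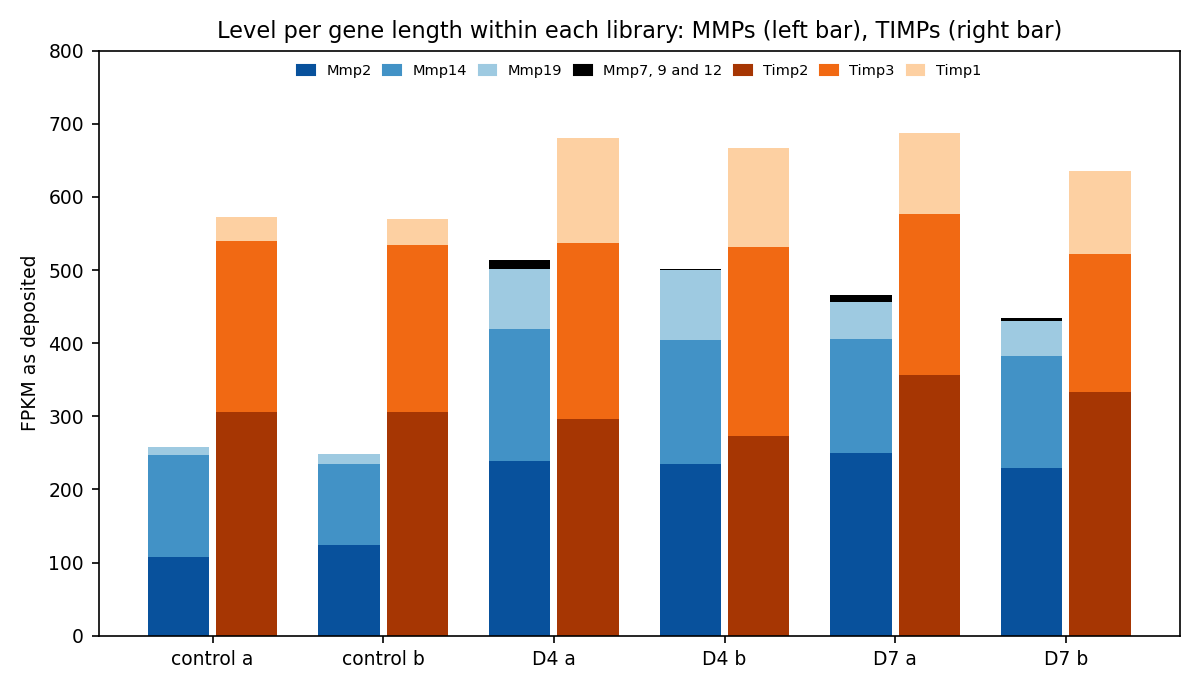
Summed FPKM of the MMP genes (left bar of each pair) and of the 3 TIMP genes (right bar) in each library, divided by gene, with the axis starting at 0. The TIMP bar is 2.23 to 2.29 times the MMP bar in control, 1.33 times on D4 and 1.46 to 1.48 times on D7. The Mmp2, Mmp14, Mmp19 and Timp1 segments are larger in all 4 injured libraries than in control. These FPKM values carry no TMM factor, and in TMM-scaled CPM the injured libraries of Mmp14 overlapped the control range.

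Of 16 other listed genes (15 MMPs and Timp4), 15 were found, 6 had no count and 8 were tested, of which 2 were DEGs on each day. Of all tested genes 21.9% were DEGs on D4 and 18.8% on D7. The control vs D4 group had 0 upregulated and 2 downregulated genes (Mmp24 and Mmp27) among these 8, and the control vs D7 group had 1 upregulated (Mmp8) and 1 downregulated gene (Mmp24). Mmp24, a membrane-type MMP of neural tissue, was lower on both days, with 2.37 and 3.20 CPM in control, 0.49 and 0.44 CPM on D4 and 0.75 and 0.99 CPM on D7. Its log2 fold change was -2.56 (SE 0.38, adjusted p = 0.00322) on D4 and -1.67 (SE 0.37, adjusted p = 0.0159) on D7, and the D7 call was lost without control b (adjusted p = 0.0719) or D7 a (adjusted p = 0.0906). Timp4, the remaining inhibitor, had 30.9 and 30.8 CPM in control, 16.7 and 9.01 CPM on D4 and 3.62 and 14.1 CPM on D7. All 4 injured libraries of Timp4 were below the controls, but the adjusted p-value was 0.126 on D4 and 0.0584 on D7. The summed level of the 5 adipocyte markers was 1315 and 1080 CPM in control, 309 and 153 CPM on D4 and 7.09 and 438 CPM on D7, also lowest in D7 a, and the part of these cells in the level of Timp4 was not tested. The median log2 fold change of the 8 genes was -0.49 on D4 and 0.09 on D7.

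Among 11 genes whose products activate, inhibit or bind MMPs, 10 were tested and A2m had no count. The control vs D4 group had 2 upregulated and 2 downregulated genes among them and a median log2 fold change of -0.29. The control vs D7 group had 1 upregulated and 2 downregulated genes and a median of -0.62. These are 4 and 3 of the 10 genes, where 21.9% and 18.8% of all tested genes were DEGs. Cd44, the hyaluronan receptor that docks MMPs at the cell surface, was at 91.0 and 115 CPM in control, 421 and 417 CPM on D4 and 349 and 315 CPM on D7. It was upregulated on both days (log2 fold change 2.02, SE 0.14, adjusted p = 0.000239 on D4). The proprotein convertases, which cut the propeptide of Mmp14 and other latent enzymes, moved in different directions. Furin had 88.7 and 98.0 CPM in control and 211 and 209 CPM on D4, a log2 fold change of 1.17 (SE 0.09, adjusted p = 0.000348), and on D7 its log2 fold change of 0.84 was under 2-fold. Pcsk6 had 92.1 and 81.3 CPM in control, 25.1 and 20.6 CPM on D4 and 10.5 and 19.6 CPM on D7, and was downregulated on both days (log2 fold change -1.93, SE 0.28, adjusted p = 0.00297 on D4). Pcsk5 was downregulated as well (log2 fold change -1.08 on D4 and -1.75 on D7), but on D4 it was under 2-fold without control a (-0.91) and without the TMM factors (-0.79). Reck, a membrane-anchored inhibitor of MMPs, had 180.2 and 168 CPM in control, 94.4 and 98.2 CPM on D4 and 94.6 and 90.7 CPM on D7. Its log2 fold change of -0.85 (adjusted p = 0.000782) on D4 and -0.91 (adjusted p = 0.000957) on D7 passed the p-value threshold but was under 2-fold.

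The related ADAM and ADAMTS proteases were measured for 17 genes, all of which were tested. The control vs D4 group had 3 upregulated and 0 downregulated genes, and the control vs D7 group had 4 and 0. Among all tested genes 11.2% were upregulated and 10.7% downregulated on D4, and 9.83% and 9.02% on D7. The median log2 fold change of the 17 genes was 0.23 on D4 and 0.01 on D7. With the adjusted p-value alone, 4 of the 17 were higher and 3 lower on D4, and 5 were higher and 5 lower on D7. By that rule 21.6% of all tested genes were higher and 22.6% lower on D4, and 19.5% and 18.1% on D7. Adam12, an ADAM of mesenchymal cells, had 14.5 and 17.8 CPM in control, 66.7 and 62.5 CPM on D4 and 45.1 and 42.1 CPM on D7, a log2 fold change of 2.00 (SE 0.13, adjusted p = 0.000209) on D4. Adamts4, an aggrecanase that cuts proteoglycans, was upregulated by 1.48 (SE 0.12, adjusted p = 0.000338) on the log2 scale on D4. Adam8, an ADAM of leukocytes, had 3.61 and 5.12 CPM in control, 31.0 and 9.09 CPM on D4 and 23.2 and 13.9 CPM on D7. It passed on both days (adjusted p = 0.0305 and 0.0413), and without control a, control b or D4 a the adjusted p-value on D4 was 0.121, 0.0781 or 0.111. On D7 it was 0.150, 0.0972, 0.142 and 0.0516 without control a, control b, D7 a and D7 b. Like Mmp12, Mmp8 and Mmp7, Adam8 was higher in D4 a than in D4 b.

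Profiles over the 6 libraries were compared by the root mean square difference of log2 CPM, each gene centred on its own mean, over 15195 genes. These values describe 6 libraries that share groups and depth, and no test was made. The gene most like Mmp7 was Mmp8 (0.65), a gene of the same cluster, followed by Cxcr1 (0.77) and Apoc4 (0.82), and Mmp12 was the ninth (0.95). For Mmp12 they were Gpnmb (0.52), Hk3 (0.58) and Lilrb4 (0.68). For Mmp9 they were Ube2c (0.52), Chst8 (0.52) and Rbm44 (0.53), and neither Mmp7 (1.85) nor Mmp12 (1.60) was near. Mmp19 was closest to Ripk3 (0.07), Lrrc25 (0.09) and Pask (0.10), and Timp1 to Cd180 (0.04), Junb (0.05) and Cnksr3 (0.05). The closest genes were Dcaf15 (0.02), Man2b1 and Sephs2 for Mmp2, Gatsl3, Dctn2 and Tada2b for Mmp14, Prmt5 (0.02), AABR07037536.1 and Inpp5k for Timp2, and AABR07003049.1, Kcnab2 and Lonrf1 for Timp3. The low-count genes had no close neighbor, whereas Mmp2, Mmp14, Mmp19, Timp1, Timp2 and Timp3 each had a gene within 0.1.

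The 3 TIMP genes overlap other genes in the annotation, and whether counting used the strand was not given in the sources used here. Timp1 lies within Syn1, which had 28 to 57 counts against at least 491 for Timp1. Timp3 lies within Syn3, which had 13 to 45 counts against at least 6154 for Timp3. Cep295nl lies within Timp2 and had 466 to 597 counts against at least 9536 for Timp2. The overlapping genes of the mRNA table were thus small beside the TIMPs in every library. This does not cover the overlapping long non-coding RNAs, taken up next, which were counted separately.

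Long non-coding RNAs (lncRNAs) on or within 10 kb of a member were counted per transcript in a separate table of 22721, the distance at which the study assigned cis-targets. There were 17, near Mmp14 (9), Timp2 (4), Timp1 (2), Mmp19 (1) and Timp3 (1), and 13 had enough counts to be tested. In the control vs D4 group 1 of the 13 was upregulated, beside 5.19% of all 14077 tested lncRNAs, and in the control vs D7 group 0 were called, beside 5.79% in either direction. At an unadjusted p-value under 0.05 there were 2 of the 13 on D7, beside 25.5% of all tested lncRNAs, and DESeq2 called 1. The upregulated lncRNA was NONRATT025473.2 (chr7:3216458-3220580), which overlaps Mmp19. It had 43 and 30 counts in control, 114 and 164 on D4 and 92 and 89 on D7, and like Mmp19 it was highest in D4 b. Its log2 fold change was 1.76 (SE 0.26, adjusted p = 0.0170) on D4 and 1.22 (SE 0.26, adjusted p = 0.0575) on D7. The D4 call was lost without control a (adjusted p = 0.0505), control b (0.0732), D4 a (0.0663) or D4 b (0.106). Fragments of the lncRNA and of Mmp19 cannot be told apart where their exons overlap. NONRATT026609.2 (chr7:23543124-23548539), which covers one end of Timp3, had 13722 to 22618 counts per library, more than Timp3 itself (6154 to 11459). It was not called on D4 (adjusted p = 0.854) or D7 (adjusted p = 0.397). Whether NONRATT026609.2 and Timp3 share fragments was not tested.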

How the data were processed

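Sciatic nerve RNA was depleted of ribosomal RNA and sequenced in pairs on an Illumina HiSeq Xten. The authors mapped the reads with HISAT2 2.0.4 to Rnor_6.0 and assembled and counted them with StringTie 1.3.0. They deposited whole-number fragment counts, not normalized, and FPKM values, which for mRNAs follow each library's total with no TMM factor. All tests used the counts, and FPKM only ranked genes and gave sums, ratios and shares within libraries. edgeR 4.0.16 (R 4.3.3) was run with filterByExpr, TMM and the quasi-likelihood model on all 6 libraries, for 15195 mRNAs and, separately, 14077 lncRNAs, with Benjamini-Hochberg adjustment over each table. SE was taken as the size of the log2 fold change over the root of F. With 2 rats per group, the p-values rest on a spread estimated over all 6 libraries and drawn toward that of other genes. The procedure was checked on simulated data.

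The members and all gene lists were chosen with earlier results of these data known. All members are named, as are the 3 largest DEGs on D4 of each related list with no overlap of the groups, overlapping genes, lncRNAs within 10 kb and the 3 most similar profiles. Pcsk5, Reck, Timp4, Mmp8 and NONRATT026609.2 are given in addition, with test results, and Mmp13 and Mmp15 by level or count. Adam17 was chosen after its values were seen. Mmp25, Pecam1, Myh2 and Myh4 were not found by symbol. The alternatives were DESeq2 1.42.0, no TMM factors, no filter, at least 10 counts in every library, fits of 2 groups, the library letter as a block, the adjusted p-value alone and leaving out each library. Figures were drawn with matplotlib 3.10.9.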

Additional observations from a re-analysis of the deposited data

Results flagged for a closer look

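Adam17, the protease that sheds tumor necrosis factor from the cell surface, was the 1 gene among the members and related lists that differed between the D7 and D4 groups in the direct comparison, where 2.18% of all tested genes were DEGs. The lists held 9 tested members, 8 other MMPs and Timp4, 10 activators, inhibitors and binding partners, and 17 ADAM and ADAMTS genes. A single DEG among them is close to the share of all tested genes. It had 124 and 149 CPM in control a and b, 159 and 152 CPM in D4 a and b, and 385 and 305 CPM in D7 a and b. Both D7 libraries were above the other 4, and the D4 libraries were within 10 CPM of the higher control. The log2 difference of D7 from D4 was 1.15 (SE 0.15, adjusted p = 0.0215). Against control it was 0.18 (SE 0.15, adjusted p = 0.348) on D4 and 1.34 (SE 0.15, adjusted p = 0.00152) on D7. The difference between the days lost its call without D4 a (adjusted p = 0.190), D4 b (adjusted p = 0.183) or D7 a (adjusted p = 0.0757).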

How the results depend on the processing

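The 314 values recomputed for the members kept their direction and side of the threshold in 283 cases, lost a call in 6, gained one in 13 and changed sign in 12. With at least 10 counts in every library 2 members remained called on D4 and 2 on D7, since Mmp7, Mmp9 and Mmp12 were then not tested. Leaving out 1 library gave 3 to 4 members called on D4, 2 to 5 on D7, the lowest without control b, and 0 for D7 against D4. For nearby lncRNAs, the counts were 2 on D4 and 1 on D7 without the TMM factors, 1 on D7 with DESeq2, 1 on D7 with at least 10 counts, 0 to 2 on D4 and 0 to 1 on D7 with 1 library left out. With the adjusted p-value alone 6715 mRNAs passed on D4, 5705 on D7 and 710 for D7 against D4. DESeq2 called 521 mRNAs for D7 against D4, beside 331, and leaving out 1 library gave 0 to 469, with 0 without D4 a or D4 b and 99 without D7 a. Without the TMM factors 69.3% of the mRNAs called on D4 and 70.4% on D7 were higher, beside 51.2% and 52.1%.

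The changes of sign were all in values that did not pass. For Mmp2, D7 against D4 was -0.0254 with DESeq2, -0.0025 with the 2 groups alone and -0.0709 to 0.0766 with 1 library left out. For Mmp7 that difference ranged from -0.13 to 3.85 with 1 library left out. For Mmp12 it was 0.0053 with the letter block, and -1.30 to 1.60 with 1 library left out. Mmp14 on D7 was -0.0036 with DESeq2, and -0.17 to 0.21 with 1 library left out. Timp2 on D7 was 0.17 and Timp3 on D4 was 0.11 without the TMM factors. The cause was not tested.

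The letters a and b were not a pairing, since they name different rats, and same-letter libraries had deviation correlations of 0.01, 0.19 and -0.13 between groups. With the letter as a replicate block, 5 members were called on D4 and 5 on D7, Mmp7 being added, beside 3281, 2827 and 248 mRNAs and 1 and 0 nearby lncRNAs.

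With 2 rats a group, a control count of 0 to 4 leaves the sizes of Mmp7, Mmp9 and Mmp12 loosely set, and a missing call does not show that a level stayed the same.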
